A study of Mus musculus with 8 samples.

Results

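Matricellular proteins are secreted proteins that lodge in the extracellular matrix and act on cells there, by binding receptors, growth factors and proteases, more than by bearing load. The 10 such genes described here were the CCN genes Ccn1, Ccn2, Ccn3 and Ccn5, the thrombospondins Thbs1, Thbs2, Thbs3 and Thbs4, Sparc, and the tenascin gene Tnc. They were found by symbol, as all probe sets whose platform annotation names exactly 1 gene and that gene is one of these 10. This gave 20 of the 34945 single-gene probe sets on the array and 10 of the 18193 genes. The probe set standing for a gene was selected on its mean over the 8 arrays, as the brightest one. The 10 genes themselves were chosen by family with the KO minus WT differences of these arrays already in view, so the count of changed genes among them is not independent evidence about matricellular genes.

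RNA came from snap-frozen inguinal white fat, which lies under the skin of the groin, of male C57BL/6 mice that were 12 weeks old and ate standard chow. Lpar4-deficient animals (genotype Lpar4 -/Y, KO, n = 4) were set against wild-type male littermates (WT, n = 4), with 1 array per mouse. Lpar4 is an X-linked receptor for lysophosphatidic acid, and the labels name no promoter, Cre or cell type for its loss. The tissue was taken whole, so fewer cells of a type and less RNA per cell cannot be told apart in any value below.

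The co-activators YAP and MRTF, which work with the DNA-binding factors TEAD and SRF, respond to signals from the matrix and from some lysophosphatidic acid receptors. Ccn1 and Ccn2 are textbook targets of YAP and TEAD, and Thbs1 is also known to respond to serum, TGF-beta and this pathway. In fat, members of these families are made mainly by stromal, vascular and perivascular cells, and Sparc and Ccn5 are known for their effects on adipocyte precursors.

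Values are log2 signals, and each difference is KO minus WT. Array medians ran from 6.725 to 6.740. Of all probe sets, 78.7% had an SD under 0.01 over the 8 arrays, called near constant here; the other genes, 5173 of them, are called varying. Of the members' probe sets 17 of 20 varied, and 9 of the 10 genes did, all except Tnc. Lpar4 itself had 3 probe sets that did not move together. Probe set 1452424_at averaged 5.81 ± 0.07 in KO and 6.93 ± 0.10 in WT (SD, n = 4 each), whereas the means of 1434186_at and 1439665_at were higher in KO by 0.71 and 0.53, with no overlap of the genotypes. The position of these probes relative to the deletion was not analysed here. Signals of the 3 control probe sets for small-subunit ribosomal RNA likewise lay higher in KO without overlap, by 0.44, 0.22 and 0.28. This is a measured difference between the genotypes that runs beside every result below, and its part in them was not tested.

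Promoter sequences of 3 members are shown because they set a gene that fell (Thbs2) beside one whose arrays did not overlap without passing the test (Thbs4) and one that hardly differed (Ccn1), in relation to the core of the TEAD site. They are the 250 bases before the gene start, 5′ to 3′ on the gene's strand, from RefSeq on build GRCm38.p6, at chr17:14694263-14694512 (- strand) for Thbs2, chr13:92794819-92795068 (- strand) for Thbs4 and chr3:145649986-145650235 (- strand) for Ccn1. Capitals mark GGAATG or its reverse complement.
Thbs2: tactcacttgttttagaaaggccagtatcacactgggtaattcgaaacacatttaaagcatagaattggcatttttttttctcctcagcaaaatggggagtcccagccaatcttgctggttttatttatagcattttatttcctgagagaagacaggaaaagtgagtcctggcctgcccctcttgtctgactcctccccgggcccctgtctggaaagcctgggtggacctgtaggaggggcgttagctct
Thbs4: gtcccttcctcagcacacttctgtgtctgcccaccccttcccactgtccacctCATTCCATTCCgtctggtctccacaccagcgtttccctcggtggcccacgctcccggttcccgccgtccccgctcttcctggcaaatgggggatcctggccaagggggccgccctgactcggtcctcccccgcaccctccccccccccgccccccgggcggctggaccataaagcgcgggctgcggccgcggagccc
Ccn1: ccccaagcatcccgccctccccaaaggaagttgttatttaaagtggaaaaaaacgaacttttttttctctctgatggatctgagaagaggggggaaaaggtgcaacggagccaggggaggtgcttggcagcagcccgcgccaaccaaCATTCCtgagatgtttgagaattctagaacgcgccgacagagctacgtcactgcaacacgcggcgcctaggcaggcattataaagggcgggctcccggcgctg

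The RefSeq promoter set used here held 6 of the 10 members, in 7 windows. It held none for Ccn2, Ccn3, Ccn5 and Thbs1, so the member with the largest difference, Ccn5, was not searched. GGAATG was searched on both strands, and it was present in the windows of Ccn1 (1 match, starting 103 bases before the gene start) and Thbs4 (2 matches that overlap by a base, starting 197 and 192 bases before it). It had no match in the windows of Thbs2, Thbs3, Sparc and Tnc. Of all 32851 promoter windows of this length, 12.6% held at least 1 match and 1.02% held 2 or more. The CArG box, the site bound by SRF, was also searched on both strands. It had no match in the members' windows and occurred in 1.47% of all windows. The members with a match, Ccn1 and Thbs4, differed by 0.04 and -0.79, and those without, Thbs2, Thbs3, Sparc and Tnc, by -1.16, 0.07, -0.28 and 0.000131. These are letter matches in a short window and not bound sites.

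The members did not move as a block. Among the 10 genes, Ccn5, Thbs2 and Sparc fell in KO and 0 rose, by limma with a Benjamini-Hochberg adjusted p under 0.05 over all 18193 genes, of which 4.03% were called, 1.64% lower and 2.39% higher. With the replicate number as a block 0.00% of all genes and 0 members passed; among varying genes alone 4 members fell (12.2% of varying genes), and 3 with the block (9.24%). In Ccn5, Thbs1, Thbs2, Thbs4 and Sparc every KO array lay below every WT array, 5 of 10 genes, against 7.00% of all genes and 15.0% of varying genes. The median difference of the 10 genes was -0.30, against 2.86e-05 over all genes and 0.0145 over varying genes. These counts describe genes chosen with the results known, and nothing further is read from them. The remaining members, Ccn1, Ccn2, Ccn3, Thbs3 and Tnc, overlapped between the genotypes.

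**Figure D1:**
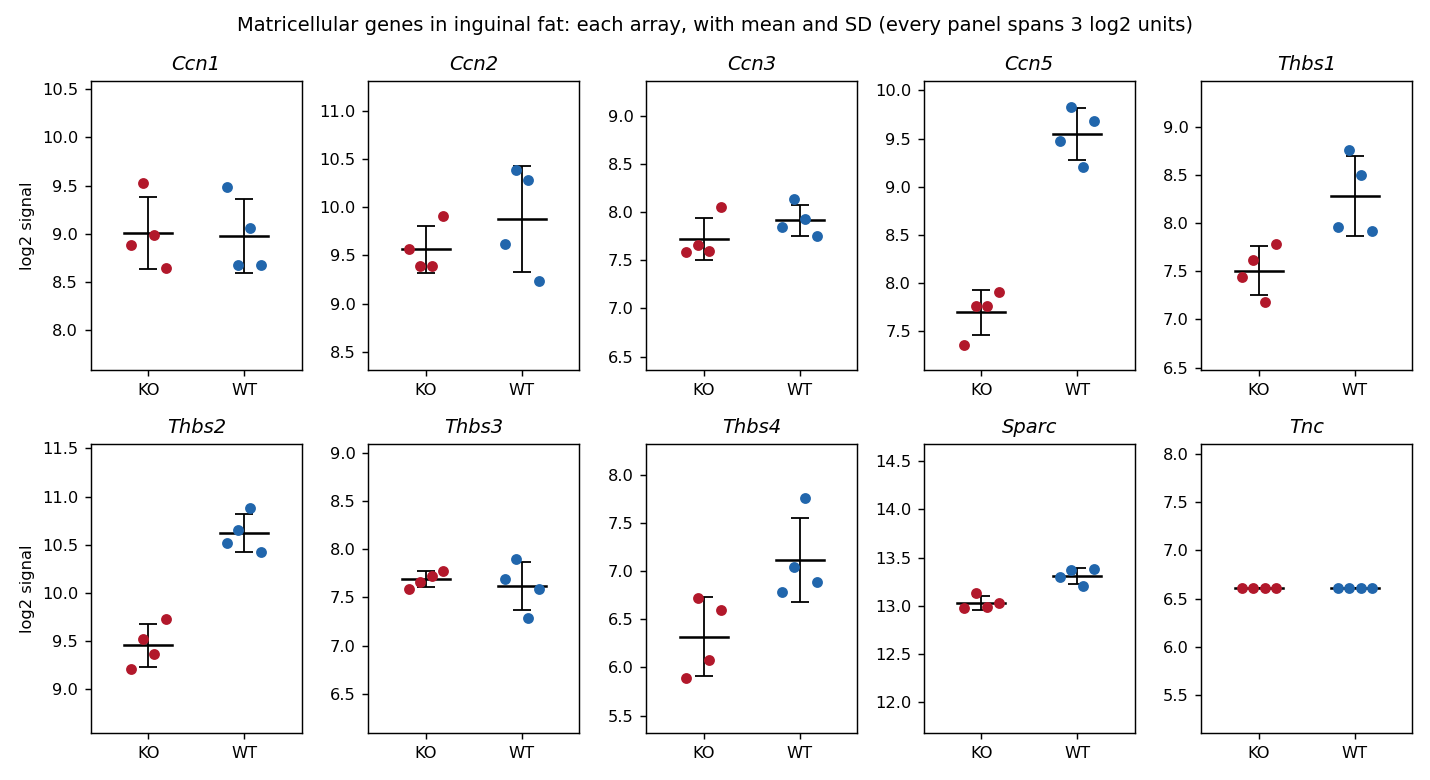
Log2 signal of the 10 members (y axis) in each of the 4 KO arrays (red, left) and 4 WT arrays (blue, right), with the mean (line) and SD (bar); every panel spans 3 log2 units. All KO points lie below all WT points for Ccn5, Thbs1, Thbs2, Thbs4 and Sparc, and Tnc stays at 6.61 in every array.

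Among the CCN genes, Ccn5 stood alone in its size. Ccn5, also called Wisp2, encodes a short CCN protein that lacks the C-terminal cystine knot of its relatives and is secreted by mesenchymal cells, adipose precursors among them. Its log2 signal was 7.36, 7.76, 7.76 and 7.91 in KO arrays 1 to 4, against 9.48, 9.83, 9.20 and 9.68 in WT arrays 1 to 4. The highest KO array was well under the lowest WT array. The means were 7.70 ± 0.23 in KO and 9.55 ± 0.27 in WT (SD, n = 4 each), a difference of -1.85 ± 0.17 (SE), or a signal 3.61-fold lower in KO. The limma adjusted p was 0.0134 over all genes. This was the most negative difference of all 18193 genes (rank 1), and its mean was brighter than 74.3% of probe sets in KO and 93.4% in WT. With the replicate number as a block, the adjusted p was 0.0751 over all genes, which ends the call, and 0.0148 over varying genes, which keeps it.

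Ccn1 and Ccn2, the best-known targets of YAP and TEAD in the family, did not pass. Ccn1 (Cyr61), an integrin-binding protein induced early after growth factor or mechanical signals, read 8.88, 9.53, 8.99 and 8.64 in KO arrays 1 to 4, against 9.48, 8.68, 9.06 and 8.68 in WT arrays 1 to 4. The 2 genotypes covered the same range. The difference was 0.04 ± 0.26 (SE), with a 95% confidence interval of -0.59 to 0.66 and a limma adjusted p of 0.954, so a difference anywhere in that interval could not be told from none. Ccn2 (Ctgf), a profibrotic relative that TGF-beta also induces, read 9.57, 9.39, 9.39 and 9.91 in KO arrays 1 to 4, against 9.62, 10.39, 10.28 and 9.23 in WT arrays 1 to 4. The WT arrays split, with numbers 2 and 3 above every KO array number 1 among them and number 4 below them all. The difference was -0.32 ± 0.29 (95% confidence interval -1.02 to 0.39, limma adjusted p = 0.581), and it was -0.147 without WT array 2, -0.182 without WT array 3 and -0.531 without WT array 4.

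Ccn3 (Nov), a CCN protein that binds integrins, read 7.58, 7.66, 7.59 and 8.05 in KO arrays 1 to 4, against 7.84, 8.13, 7.93 and 7.75 in WT arrays 1 to 4. KO array 4 lay among the WT arrays, and the other KO arrays lay below all of them. The difference was -0.19 ± 0.13 (95% confidence interval -0.52 to 0.13, limma adjusted p = 0.453).

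Whether Ccn5 differed from its relatives was tested on each array's log2 value of one gene minus that of another, in all 12 pairs within the CCN genes and within the thrombospondins. The difference of Ccn5 was more negative than that of Ccn1 by 1.89, of Ccn3 by 1.66 and of Ccn2 by 1.53 log2 units. In each of these pairs the arrays of the genotypes did not overlap (two-sided exact permutation p = 0.0286, the smallest that 4 against 4 arrays can give). Adjusted over the 12 pairs the p was 0.0571, so 0 of the 12 pairs passed, although 6 had an unadjusted p under 0.05. Ccn5 was known to be the extreme gene when the pairs were set, so these values describe a gap and do not establish it independently. Among Ccn1, Ccn2 and Ccn3 the differences were not told apart (exact permutation p from 0.457 to 0.6).

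Among the thrombospondins, Thbs2, Thbs1 and Thbs4 had lower values in KO, and Thbs3 did not. Thbs2, a trimeric thrombospondin of fibroblasts that binds CD36 and CD47 and carries matrix metalloprotease 2 to the clearance receptor LRP1, read 9.21, 9.52, 9.37 and 9.73 in KO arrays 1 to 4. It read 10.52, 10.65, 10.88 and 10.43 in WT arrays 1 to 4. Every KO array lay well below every WT array. The means were 9.46 ± 0.22 in KO and 10.62 ± 0.20 in WT (SD, n = 4 each), a difference of -1.16 ± 0.14 (SE), or a signal 2.24-fold lower in KO (limma adjusted p = 0.0215 over all genes). With the replicate number as a block the adjusted p was 0.115 over all genes and 0.0225 over varying genes. The call was also lost without KO array 1 (0.0528), KO array 3 (0.0763) or WT array 2 (0.0620), with differences of -1.08, -1.14 and -1.16.

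Thbs1, the trimeric relative that activates latent TGF-beta and is stored in platelets, was lower in every KO array without passing. It read 7.44, 7.61, 7.18 and 7.78 in KO arrays 1 to 4, against 7.96, 8.76, 8.49 and 7.92 in WT arrays 1 to 4. The gap between the nearest arrays, KO 4 and WT 4, was small, and WT arrays 2 and 3 were the highest, as they were for Ccn2. The difference was -0.78 ± 0.24 (SE), a 95% confidence interval of -1.35 to -0.20, and the limma adjusted p 0.123 over all genes. Over varying genes it was 0.0331 without and 0.0632 with the replicate block.

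Thbs4, a pentameric thrombospondin known from tendon, muscle and nerve, was dim. It read 5.88, 6.72, 6.07 and 6.60 in KO arrays 1 to 4, against 6.78, 7.04, 7.75 and 6.88 in WT arrays 1 to 4. Its mean was brighter than 27.6% of probe sets in KO and 62.3% in WT, so the size of the difference is not exact. It was -0.79 ± 0.29 (SE, limma adjusted p = 0.175), and -0.58 without WT array 3 and -0.65 without KO array 1. Thbs3, another pentameric form, read 7.59, 7.66, 7.73 and 7.78 in KO arrays 1 to 4, against 7.69, 7.90, 7.29 and 7.59 in WT arrays 1 to 4. Its KO arrays lay inside the range of the WT arrays, with a difference of 0.07 ± 0.13 (95% confidence interval -0.24 to 0.38, limma adjusted p = 0.801). In the pairwise tests the differences of Thbs1, Thbs2 and Thbs4 were each more negative than that of Thbs3, by 0.85, 1.24 and 0.86. The exact permutation p was 0.0286 and the adjusted p 0.0571 in each pair, so none passed. These pairs too were set with the differences known, so the values describe a gap and do not establish it independently. Thbs1, Thbs2 and Thbs4 were not told apart from each other (exact permutation p from 0.114 to 0.971).

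Sparc, a collagen-binding protein abundant in adipose stroma and known to restrain adipocyte formation in mice, was brighter than 99.9% of probe sets in both genotypes. It read 12.98, 13.14, 12.98 and 13.02 in KO arrays 1 to 4, against 13.30, 13.37, 13.20 and 13.38 in WT arrays 1 to 4. The spread within each genotype was small, and the arrays did not overlap. The difference was small too, -0.28 ± 0.05 (SE), or 1.21-fold, and passed narrowly (limma adjusted p = 0.0454). The call was lost without any 1 of the 8 arrays (adjusted p from 0.0539 to 0.126), with the replicate block (0.103 over all genes, but 0.0318 over varying genes), and after quantile normalization (0.0579).

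Tnc, a hexameric matrix protein induced in wounds and development, was near constant. Its brightest probe set read 6.61 in all 8 arrays, brighter than 44.2% of probe sets in KO and 44.1% in WT, and its SD over the arrays was 0.000144. In a table where most probe sets hardly vary, such a value gives no information on a difference in either direction.

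The several probe sets of 1 gene had the same direction wherever they varied and the difference was clear, but not the same size. The 3 probe sets of Thbs2 differed by -1.16 (1422571_at, the brightest), -0.46 (1450663_at) and -0.42 (1447862_x_at). In each of the dimmer ones KO array 4 lay just above the lowest WT array, so the clean separation of Thbs2 rests on its brightest probe set, and the mean of the 3 probe sets differed by -0.68 (limma adjusted p = 0.05 after rounding, not below the threshold). Of the 20 probe sets of the members, 2 passed over all 45101 probe sets, the single one of Ccn5 (adjusted p = 0.0173) and 1422571_at of Thbs2 (0.0274). Over all probe sets, 0.953% were called lower.

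Both probe sets of Thbs1 kept the genotypes apart, with -0.78 for 1460302_at and -0.49 for 1450377_at. For Sparc, 1448392_at differed by -0.36 beside -0.28 for 1416589_at. Both Sparc probe sets missed the threshold over all probe sets (0.0688 and 0.0567), and the third, 1458204_at, was near constant at 6.90. The brightest probe sets of Ccn1 and Ccn3 have the suffix _x_at, which marks probes shared with other transcripts. The 4 probe sets of Ccn1 all differed by between -0.01 and 0.04. The other probe set of Ccn3, 1426851_a_at, differed by -0.35, against -0.19 for the brightest (adjusted p = 0.266 and 0.477 over all probe sets).

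**Figure D2:**
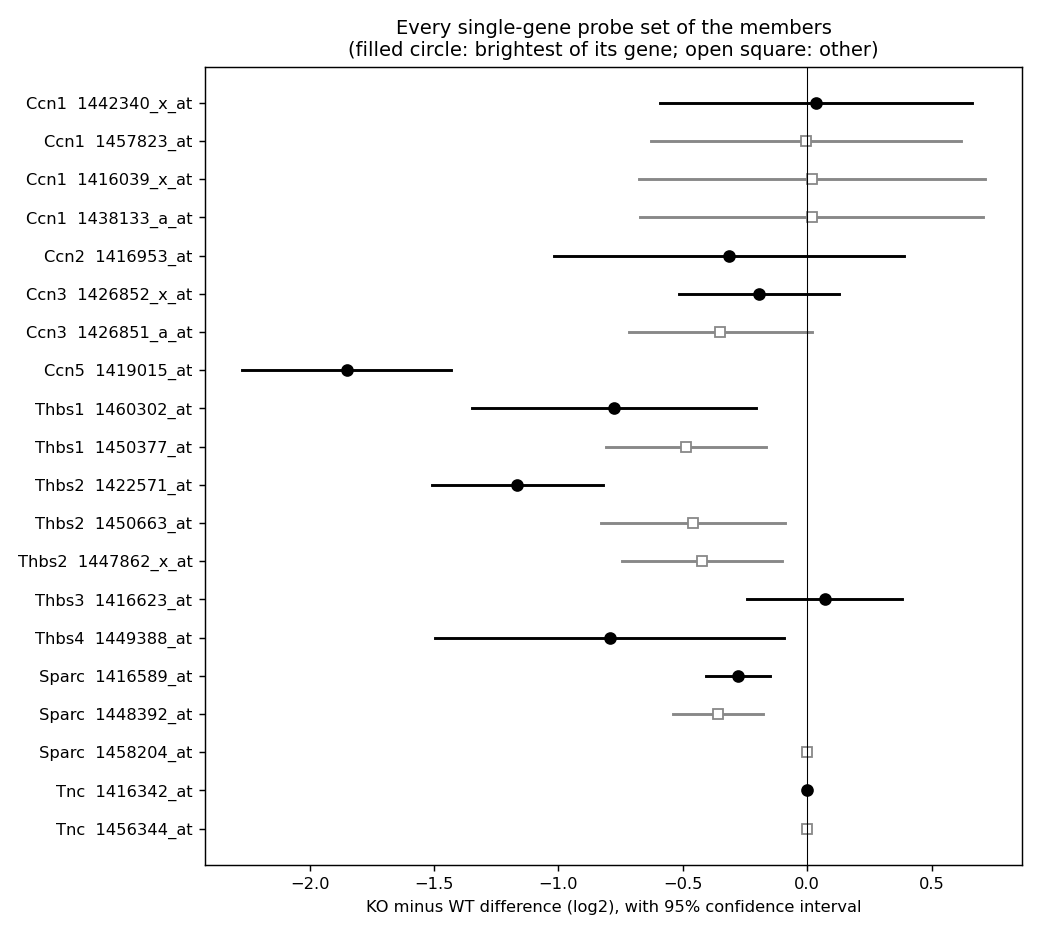
KO minus WT difference (x axis, log2) of each of the 20 single-gene probe sets of the members (y axis, gene and probe set), with 95% confidence intervals from limma; filled circles are the brightest probe set of a gene. Ccn5 lies at -1.85 and the brightest Thbs2 probe set at -1.16, while the other Thbs2 probe sets lie at -0.46 and -0.42.

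Within each genotype the members also varied from mouse to mouse, and not all in the same way. As a description over the 8 arrays, after taking off each genotype's mean, Ccn2 went with Thbs1 (Pearson r = 0.890) and with Ccn3 (0.778). Ccn3 went with Thbs1 too (0.813), and Thbs2 went with Thbs4 (0.892). WT arrays 2 and 3 were the highest in Ccn2 and Thbs1. KO array 4 was the highest KO array in Ccn2, Ccn3, Thbs1 and Thbs2, and also in Ccn5 and Thbs3. Ccn1 went with none of Ccn2, Ccn3, Thbs1, Thbs2 and Thbs4 (r from -0.413 to 0.152), although it shares its best-known regulators with Ccn2. Ccn5 went with Thbs3 (0.823) and Sparc (0.703), and less with Thbs2 (0.115). The arrays are the same for all genes, and such values carry array-wide variation too.

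By replicate number, only the sizes are informative for the members whose arrays did not overlap. Their sign had to stay the same in both pairs of numbers. In numbers 1 and 2 Ccn5 differed by -2.09, Thbs2 by -1.22, Thbs1 by -0.83, Thbs4 by -0.61 and Sparc by -0.27. In numbers 3 and 4 the values were -1.61, -1.11, -0.72, -0.98 and -0.29 in the same order. Skeletal muscle markers split the arrays the same way, with list means of 8.96 to 9.71 in KO and WT arrays 1 and 2 and 6.41 to 7.21 in arrays 3 and 4. Thbs3 had opposite signs, -0.17 in numbers 1 and 2 and 0.31 in numbers 3 and 4, and so had Ccn1, at 0.13 and -0.06.

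Genes whose pattern was most like that of the 3 members with the largest differences were listed by Pearson r over the 8 arrays, among 5172 other varying genes. Over the plain values, which carry the genotype difference, the nearest to Ccn5 were the elastic fibre protein Fbln5 (r = 0.992), the glycolipid transfer protein Gltp (0.989), Plp2 (0.985) and the calponin Cnn2 (0.983). The nearest to Thbs2 were the focal adhesion protein Parva (0.991), Cpsf6 (0.989), Ddx39b (0.988) and the integrin Itgb4 (0.986). The nearest to Thbs4 were the tubulin Tubb2a (0.991), the endothelial factor Sox18 (0.974), Ybx1 (0.972) and Eif1a (0.970). After taking off the genotype means the lists changed: Arfip1, Rps4x, the membrane metalloprotease Mmp14 and Tmem30b were nearest to Ccn5 (0.974 to 0.959), and Gnl2, Maff, Cdk11b and Lrig3 to Thbs2 (0.961 to 0.948). For Thbs4 they were Tubb2a, Tmed5, Rbp7 and Adgrg2 (0.983 to 0.961). Only Tubb2a stood in both readings for its member. With 8 arrays and 5172 genes the highest r is high by selection.

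Of 24 other matricellular genes measured, 15 varied, 0 rose and Fbln5 fell, and it was also the 1 gene of the list that lay lower in KO without overlap. Fbln5 encodes fibulin-5, which helps to assemble elastic fibres, and read 10.02, 10.28, 10.14 and 10.30 in KO arrays 1 to 4, against 10.90, 11.06, 10.88 and 11.08 in WT arrays 1 to 4. The arrays did not overlap, and the difference was -0.79 ± 0.08 (SE, limma adjusted p = 0.0143, or 0.0577 with the replicate block and 0.0148 over varying genes with it). Averaged over its probe sets, Fbln5 differed by -0.397. The F-spondin gene Spon1 differed by 0.54 without passing (0.133), or by 0.192 averaged over its probe sets. Also not passing were Smoc2 (-0.25), the proteoglycan Vcan (0.20) and the galectin Lgals3 (-0.18). Ccn4, Ccn6 and the fifth thrombospondin Comp were near constant. The list's median difference was -5.99e-05, or -0.01 over its varying members.

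Of 25 receptors and surface partners, 14 varied and only Lrp1 fell over all genes. Lrp1, the endocytic receptor that clears thrombospondins and protease complexes, averaged 9.79 ± 0.11 in KO and 10.27 ± 0.07 in WT (SD, n = 4 each). Its difference was -0.48 ± 0.06 (SE, limma adjusted p = 0.0234, or 0.0729 with the replicate block and 0.0216 over varying genes with it). The integrin subunit Itgb1 (-0.38, adjusted p = 0.0696), Itgb8 (-0.47) and the syndecan Sdc4 (-0.41) were lower in KO without overlap but did not pass, and Itga4 (0.48) overlapped. Calr, the calreticulin gene, was higher in KO without overlap and did not pass either (0.19, 0.0561). How many of all genes lay higher in KO without overlap was not counted, here or below. Over this list the median difference was -9.34e-06, and -0.20 over its varying members. The thrombospondin receptor Cd47 overlapped between the genotypes, with means of 10.56 in KO and 10.53 in WT. Cd36, another such receptor, was near constant at 13.46, which gives no information on a difference.

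Of 36 regulators known for CCN and thrombospondin genes, 20 varied, 0 rose, and Mrtfb and Smad4 fell. Mrtfb, a co-activator of SRF, averaged 9.63 ± 0.10 in KO and 9.99 ± 0.01 in WT (SD, n = 4 each), a difference of -0.36 ± 0.05 (SE, limma adjusted p = 0.0275). Smad4, the shared partner of TGF-beta and BMP Smads, differed by -0.22 ± 0.03 (adjusted p = 0.0275). With the replicate block both calls were lost over all genes (0.106 and 0.0870) and kept over varying genes (0.0272 and 0.0373). The TEAD factor Tead1 was lower in every KO array without passing (-0.63, 0.0635), as was the inhibitory Smad7 (-0.53, 0.0756). Srf (0.26) and Tgfb3 (-0.36) overlapped. The TGF-beta receptor gene Tgfbr1 (0.22, 0.0737) and the G protein gene Gna13 (0.08, 0.0855) were higher in KO without overlap and did not pass. Tgfb1 was also higher without overlap, by 0.000613, but it was near constant, so this gives no information on a difference. The list had a median difference of -0.000197, and -0.10 over its varying members.

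Of 22 matrix partners, proteases and ligands, 21 varied, and only the ligand Bmp2 fell (-0.21 ± 0.03, limma adjusted p = 0.0349). With the replicate block its adjusted p was 0.130 over all genes and 0.0481 over varying genes. The lysyl oxidase Lox, which cross-links collagen and elastin, differed by -1.05 ± 0.24 (SE) with no overlap, but did not pass over all genes (0.0669). Over varying genes Lox did pass, without (0.0154) and with the replicate block (0.0192). In the other lists Tead1, Smad7, Tgfbr1, Itgb1 and Itgb8, which did not pass over all genes, also passed in both of these fits. Vegfa (-0.43), Mmp9 (0.35) and Bmp4 (-0.31) overlapped. The protease gene Mmp3 was higher in KO without overlap and did not pass (0.28, 0.0784). The median difference of the list was 0.00419, or 0.00837 over its varying members. The share of the 4 lists' members called lower was 5 of 107, beside 1.64% of all genes, and each list was called in 1 or 2 genes only. Most genes of each list varied, against 5173 of all 18193 genes. The shares are therefore not alike in make-up, and no enrichment is read from them.

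**Figure D3:**
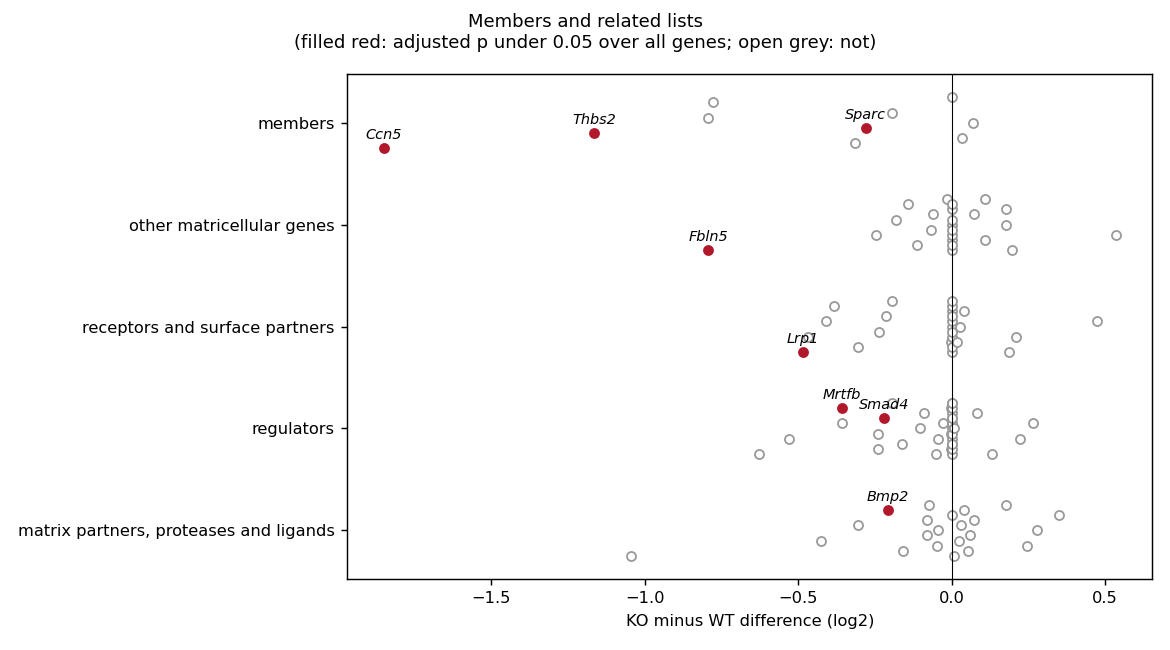
KO minus WT difference (x axis, log2) of every member and of every measured gene in the 4 related lists (rows); filled red points are genes with a limma adjusted p under 0.05 over all genes and carry their names, and open grey points did not pass. Most points sit near 0, and the named points all lie on the lower side, from -0.21 for Bmp2 to -1.85 for Ccn5.

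Markers of cells that the tissue could hold were read beside the members, with 1.64% of all genes called lower and 2.39% higher. Of 8 smooth muscle markers, 1 passed, Acta2 (-1.26, limma adjusted p = 0.0134, or 0.0975 with the replicate block; its probe set has the suffix _s_at, for probes shared by several transcripts), and the list mean ran from 8.14 to 8.36 in KO arrays and from 8.48 to 8.70 in WT arrays, without overlap. Of 8 fibroblast and progenitor markers 1 passed, and in the other direction, Clec3b (0.71, 0.0437, or 0.130 with the block), with list means of 9.60 to 9.83 in KO and 9.06 to 9.83 in WT. Of 7 pericyte markers 0 passed, at 8.999 to 9.31 in KO and 9.10 to 9.33 in WT. Of the smooth muscle markers Acta2, Tagln, Smtn and Mylk were lower in KO without overlap, Myh11 and Des overlapped, and Cnn1 and Lmod1 were near constant. Over all genes 7.00% lay lower in KO without overlap, and 15.0% of varying genes did. The list means of fibroblasts and pericytes overlapped between the genotypes. The part of any of them in the members' differences was not tested.

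Of 8 blood endothelium markers Esam passed (-0.33, limma adjusted p = 0.0381, or 0.155 with the replicate block), with list means of 8.88 to 9.10 in KO and 9.06 to 9.31 in WT. The 4 measured Schwann cell markers had list means of 8.06 to 8.56 in KO and 8.62 to 9.18 in WT, without overlap and with 0 passing. Of 6 platelet markers, which bear on Thbs1, 4 were near constant and 0 passed. Their list means overlapped, from 7.34 to 7.41 in KO and from 7.28 to 7.55 in WT. The varying ones had opposite signs. Ppbp, a platelet chemokine, differed by -0.52 (limma adjusted p = 0.0729) and Pf4, another one, by 0.25 (0.697). Of 6 tendon markers, which bear on Thbs4, 4 were near constant, among them Scx, and 0 passed, at 6.31 to 6.60 in KO and 6.36 to 6.79 in WT. The 5 adipocyte markers were bright, with list means of 12.28 to 12.38 in KO and 12.29 to 12.38 in WT. Of these, Adipoq, the adiponectin gene, rose (0.25, limma adjusted p = 0.0486, or 0.175 with the replicate block), and the leptin gene Lep differed by -0.38 without passing (0.244). With the replicate block over varying genes, Acta2, Clec3b and Esam kept their calls (limma adjusted p = 0.0201, 0.0249 and 0.0371) and Adipoq did not (0.0534). Macrophage markers had 0 of 8 passing, at 10.34 to 10.53 in KO and 9.27 to 10.74 in WT. Lymphocyte markers had 0 of 5 passing, at 6.63 to 6.80 in KO and 6.43 to 6.76 in WT.

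**Figure D4:**
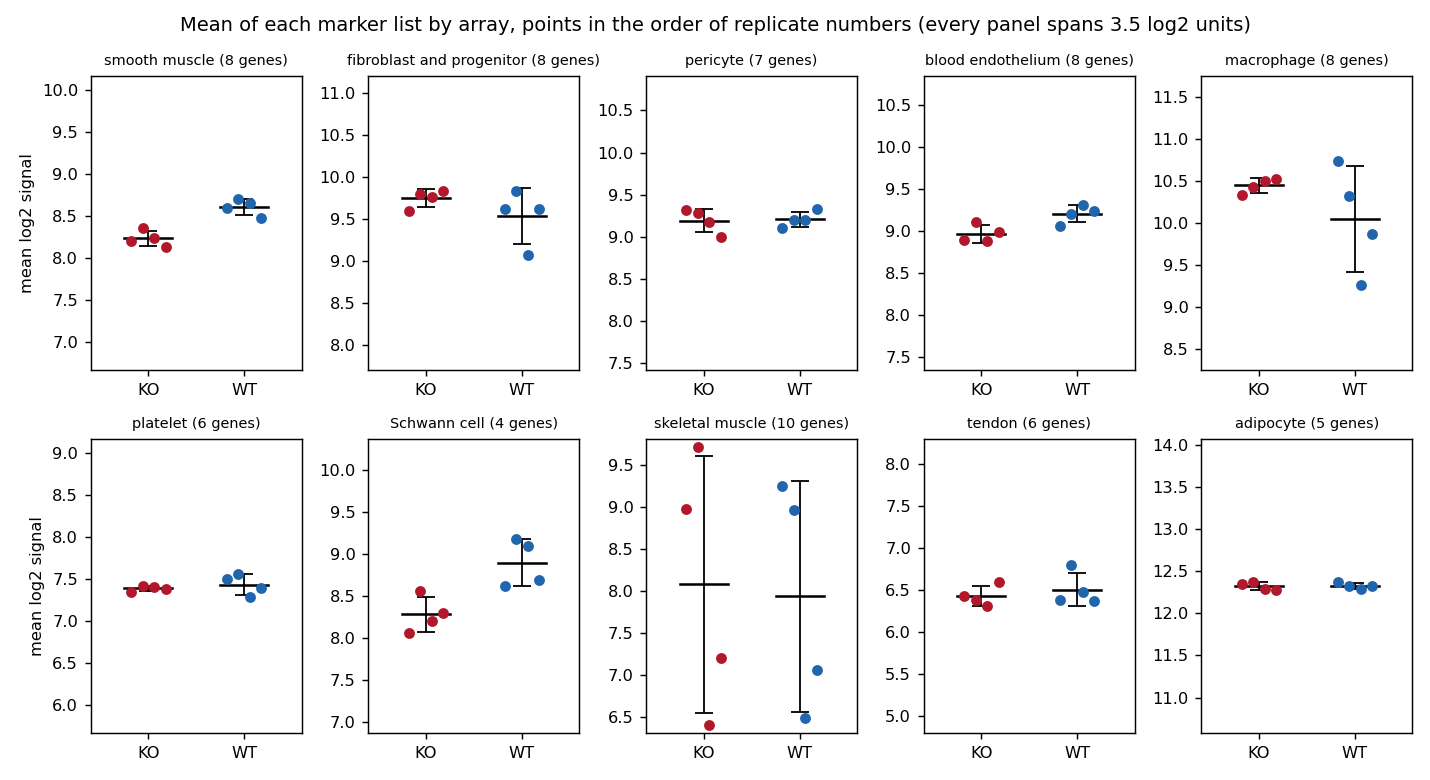
Mean log2 signal (y axis) of 10 marker lists in each of the 4 KO arrays (red, left) and 4 WT arrays (blue, right), with mean and SD; points run in the order of replicate numbers. Smooth muscle and Schwann cell means are lower in KO without overlap, and skeletal muscle means part arrays 1 and 2 from 3 and 4 in both genotypes.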

How the data were processed

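Total RNA (100 ng per mouse, per the labels' protocols) was amplified and biotin-labelled with a 3′ expression kit. The authors deposited log2 values of 45101 probe sets in 8 arrays; the submitters' processing notes list R 2.14.0, while the normalization and summarization method is not given in the sources used here. That the scale is log2 was judged by the range of the values. The number of arrays limits precision.

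Probe sets were named by the platform annotation (932 with several genes were left out), and each gene took its brightest probe set. The genotypes were compared by limma 3.58.1 (lmFit and eBayes, two-sided tests; R 4.3.3), and p-values were adjusted by Benjamini-Hochberg over the 18193 genes, or over all 45101 probe sets where stated, and a threshold of 0.05. Over all genes limma estimated 0.332 prior degrees of freedom, against 2.00 over varying genes (SD of at least 0.01). The code was tested on simulated data.

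Replicates are numbered 1 to 4 in both genotypes. Same-numbered arrays' deviations from the genotype means correlated at 0.315, 0.486, 0.189 and 0.244, all above 0.1. The main fit took the arrays as unpaired, and fits with the replicate number as a block were run beside it. That the numbers may be pairs was judged from the data alone, without comparing differently numbered arrays. Blocked values stand beside the calls they change. Members, gene lists and tests were chosen with earlier results of these arrays known. Named genes are the members, Lpar4, and of each list up to 4 passing genes with the smallest p and up to 4 others with the largest differences; genes and markers outside this rule were chosen after their values were seen.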

Additional observations from a re-analysis of the deposited data

Results flagged for a closer look

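Among 112 sets of 4 same-genotype arrays, 8 had 1 array apart from the rest, and chance flags about 1 in 20. Among the members these were KO array 2, high in probe set 1416039_x_at of Ccn1 (9.23), and KO array 4, high in 1426852_x_at of Ccn3 (8.05) and in 1447862_x_at of Thbs2 (8.19). Among related genes they were Spon1 in KO array 3 (7.79, low), Tgfb3 in WT array 2 (8.02, high), Smad4 in KO array 2 (10.5, high) and Bmp4 in KO array 4 (7.48, high). The mean of the matrix partners, proteases and ligands was low in WT array 3 (8.87).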

How the results depend on the processing

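Over all genes 733 genes, 3 members, 2 of their probe sets and 5 related genes passed. With the replicate block all 4 counts were 0 in limma (3703 genes at an unadjusted p under 0.05). Among varying genes they were 1402, 4, 8 and 15, and with the replicate block there 1011, 3, 4 and 13; 4 probe sets and 8 related genes passed among probe sets at or above the median mean. With probe sets averaged per gene 1 member (Ccn5) and 9 related genes passed. Leaving out 1 array gave 10 to 253 genes (10 without KO array 3), 0 to 2 members, 0 to 2 probe sets and 0 to 3 related genes. Among these, Ccn5 missed without KO array 3 (adjusted p = 0.0517). In the pairwise tests 0 pairs passed with any 1 array left out or with the numbers paired, but none could have passed in these settings. With 3 against 4 arrays the exact permutation p cannot fall under 0.05, and with number pairs the smallest is 0.125. These counts therefore carry no information on how stable the pairs are. Leaving out 1 array, the Ccn1 difference ran up to 0.203 and that of Thbs3 up to 0.163. The sign of Ccn1 turned without KO array 2 (-0.137), WT array 2 (-0.064) or WT array 4 (-0.064) and in numbers 3 and 4 (-0.056). That of Thbs3 turned without WT array 3 (-0.039) and in numbers 1 and 2 (-0.171), and that of Mmp9 in numbers 1 and 2 (-0.295). Averaging probe sets also moved Mrtfb to -0.119, Itgb1 to -0.134, Tead1 to -0.313, Lox to -0.682, Itga4 to 0.179, Srf to 0.132 and Vcan to 0.025. Ccn3 ran between -0.303 (without KO array 4) and -0.120 (without WT array 2). Lgals3 was -0.062 and -0.021 without those arrays, Smoc2 -0.143 without WT array 2, and Mmp9 0.588 without WT array 1 and 0.121 without WT array 3. The cause of these changes was not tested beyond the fewer arrays or genes in each fit. Of 170 other-setting values of the members 142 counted as unchanged. In the fits this meant the same direction and side of the threshold, also where a member passed in neither. For numbers 1 and 2 or 3 and 4 alone, untested, it meant the same sign and a shift below the mean within-genotype SD. Detection above background was not assessed, so the sizes of dim genes such as Thbs4 are inexact.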
